A study of Drosophila melanogaster with 4 samples.

Results

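The small heat shock protein genes Hsp22, Hsp23, Hsp26, Hsp27, Hsp67Bc and l(2)efl and the Hsp90 gene Hsp83 were followed in ovaries of adult Drosophila melanogaster. The 7 genes were taken by name, and their 13 RefSeq mRNA rows were found by accession in an NCBI RefSeq gene table and summed per gene. They are 7 of 16356 genes and take 13 of the 34705 rows of the deposited table. The study prepared 4 poly(A) RNA libraries, each from 10 to 15 pairs of ovaries: 2 in which Nup358, a nuclear pore protein, was knocked down in the germline (Nup358GLKD) and 2 of the Control, written mat>Luc. The labels give no strain, age in days or further alleles, and say only that the libraries are biological repeats, so that p-values measure the spread between these samples. The knockdown is in the germline, while whole ovaries also hold somatic follicle cells and a muscle sheath that it is not aimed at.

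Small heat shock proteins share an alpha-crystallin domain, assemble into oligomers and hold unfolding proteins without using ATP, so that the Hsp70 system can refold them or pass them on for degradation. Hsp90, encoded in flies by Hsp83, is an ATP-driven dimer that matures client proteins such as kinases, hormone receptors and Argonautes together with co-chaperones. Heat shock factor (Hsf) binds the promoters of most of these genes under stress. In Drosophila ovaries Hsp26, Hsp27 and Hsp83 are also transcribed without heat, in the nurse cells, and their mRNA is passed into the oocyte. The piRNA pathway, in which the study places Nup358, uses Hsp83 and its co-chaperones when PIWI proteins are loaded.

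Library totals lay between 58876800 and 60792292 expected counts. Nup358 itself had 282.7 and 151.3 CPM (counts scaled to a common library size with TMM factors) in Nup358GLKD, against 662.2 and 624.3 CPM in Control. Its mean was 2.96-fold lower, with an adjusted p of 0.0524 in the quasi-likelihood test of edgeR and 0.000171 in DESeq2. The knockdown replicates differed from each other more than the Control replicates did, with an SD of log2 differences across 10044 features of 0.844 in Nup358GLKD and 0.407 in Control. The log2 changes of the 10191 tested features had a median of 0.01. At an adjusted p under 0.05, 977 features (9.59%) were called higher in Nup358GLKD and 920 (9.03%) lower.

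The abundant ovarian heat shock mRNAs, Hsp26, Hsp27 and Hsp83, were lower in both Nup358GLKD libraries than in both Control libraries, and the scarce Hsp67Bc and l(2)efl were higher in both. Hsp22 and Hsp23 overlapped between the groups. The mean of Hsp26 was 2.79-fold lower and that of Hsp67Bc 4.55-fold higher in Nup358GLKD. None of the 7 passed an adjusted p under 0.05 in edgeR's quasi-likelihood test, and 3 of 7 (Hsp26, Hsp27 and Hsp83) had an unadjusted p under 0.05, beside 45.2% of all tested features. DESeq2 called 1 of 7 higher (Hsp67Bc) and 3 of 7 lower (Hsp26, Hsp27 and Hsp83), beside 20.0% of features called higher and 20.5% called lower. limma-voom called 0 of 7, beside 10.1% of features higher and 11.2% lower. For 2 of 7 genes both Nup358GLKD values exceeded both Control values and for 3 of 7 both were lower, beside 37.9% and 39.8% of tested features, which is near the background. The median log2 change of the 7 was −0.24.

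**Figure D1:**
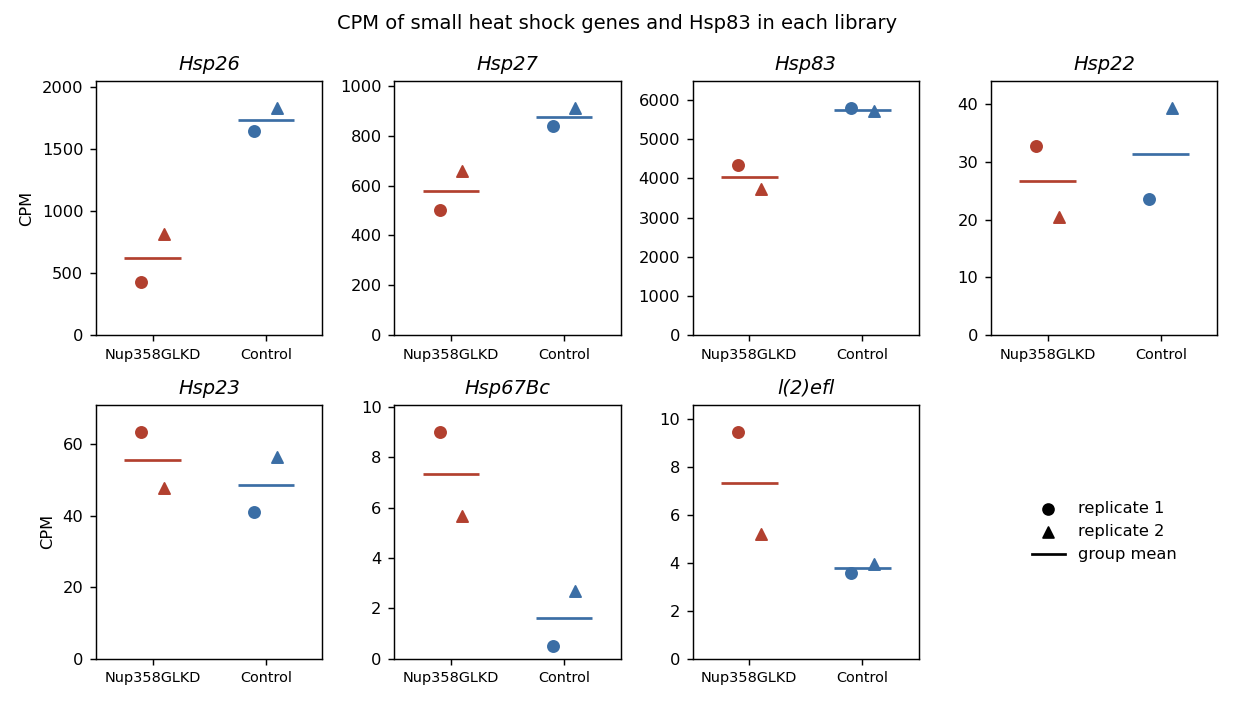
CPM (linear axes from 0) of each gene in the 2 Nup358GLKD and 2 Control libraries, with circles for replicate 1, triangles for replicate 2 and a line at the group mean. Hsp26, Hsp27 and Hsp83 lie lower in both Nup358GLKD libraries, Hsp67Bc and l(2)efl lie higher in both, and Hsp22 and Hsp23 overlap.

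Hsp26 encodes a cytosolic small heat shock protein and carried the largest difference among the abundant members. It had 431.1 and 815.7 CPM in the Nup358GLKD replicates, against 1647 and 1832 CPM in the Control replicates. Both knockdown libraries were far below both Control libraries, and replicate 1 was the lower of the 2. The means were 623.4 ± 272 CPM in Nup358GLKD and 1740 ± 131 CPM in Control (SD, n = 2 each), a log2 change of −1.48 (SE 0.35) with an adjusted p of 0.0591 in edgeR. The replicates of the knockdown retained 24.8% and 46.9% of the Control mean. DESeq2 called it lower (adjusted p = 0.000369), and over all alternatives the adjusted p ranged from 9.73e-05 to 0.320.

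Hsp27, whose protein is found largely in the nucleus, showed a smaller difference in the same direction. It had 502.1 and 658.5 CPM in the Nup358GLKD replicates, against 841.1 and 910.7 CPM in the Control replicates. The groups did not overlap, and replicate 1 was again the lower knockdown library. The mean was 1.51-fold lower in Nup358GLKD, a log2 change of −0.59 (SE 0.18) that did not pass in edgeR (adjusted p = 0.0840) and passed in DESeq2 (adjusted p = 0.0309, range over alternatives 0.000325 to 0.453). The ratio of Hsp26 to Hsp27 CPM was 0.859 and 1.24 in Nup358GLKD and 1.96 and 2.01 in Control, so that the balance of these 2 mRNAs also differed without overlap, a difference that was not tested.

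Hsp83, the cytosolic Hsp90, was the most abundant of the 7 by CPM. It had 4344 and 3724 CPM in the Nup358GLKD replicates, against 5790 and 5710 CPM in the Control replicates. Here replicate 2 was the lower knockdown library, unlike for Hsp26 and Hsp27. The means were 4034 ± 438 CPM in Nup358GLKD and 5750 ± 56.1 CPM in Control (SD, n = 2 each), 1.43-fold lower in the knockdown. The log2 change of −0.51 (SE 0.16) did not pass in edgeR (adjusted p = 0.0882), and passed in DESeq2 (adjusted p = 0.0241) and with total counts as the scaling, which called 10.3% of features lower (adjusted p = 0.0488, range over alternatives 0.000342 to 0.540). The gene took 0.410% and 0.369% of all expected counts in Nup358GLKD and 0.597% and 0.591% in Control.

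Hsp22, whose protein acts in the mitochondrial matrix, and Hsp23, a cytosolic protein, did not separate the groups. Hsp22 had 32.9 and 20.6 CPM in Nup358GLKD, against 23.5 and 39.3 CPM in Control (log2 change −0.24, SE 0.37, edgeR adjusted p = 0.640). Hsp23 had 63.4 and 47.7 CPM in Nup358GLKD, against 40.9 and 56.4 CPM in Control (log2 change 0.19, SE 0.24, edgeR adjusted p = 0.563). For both genes the higher library was replicate 1 in the knockdown and replicate 2 in Control, and the sign of the change turned when single libraries were left out. Without Nup358GLKD replicate 2 and without Control replicate 2 the log2 change of Hsp22 was 0.038 and 0.15, and without Nup358GLKD replicate 1 and without Control replicate 1 that of Hsp23 was −0.029 and −0.051.

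Hsp67Bc, the fly counterpart of mammalian HSPB8, works with the co-chaperone stv in selective autophagy of damaged proteins. It had 9.01 and 5.67 CPM in Nup358GLKD, against 0.527 and 2.70 CPM in Control, from 501 and 341 expected counts against 33 and 166. The groups did not overlap, and the Control values themselves differed 5.12-fold. A difference between the Control replicates larger than that of Hsp67Bc was seen in 0.368% of features. The means were 7.34 ± 2.36 CPM in Nup358GLKD and 1.61 ± 1.54 CPM in Control (SD, n = 2 each), a log2 change of 2.19 (SE 0.82) that did not pass in edgeR (adjusted p = 0.120). DESeq2 called it higher (adjusted p = 0.0187), and over all alternatives its adjusted p ranged from 0.0187 to 0.334. Without Control replicate 1 the log2 change was 1.41, and without Control replicate 2 it was 3.77.

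The gene l(2)efl, a relative of vertebrate alpha B-crystallin, had 9.46 and 5.20 CPM in Nup358GLKD, against 3.59 and 3.95 CPM in Control. The groups did not overlap, and replicate 1 stood furthest out. The mean was 1.94-fold higher in Nup358GLKD, a log2 change of 0.96 (SE 0.37) that passed neither in edgeR (adjusted p = 0.124) nor in DESeq2 (adjusted p = 0.0587). The log2 change was 0.46 without Nup358GLKD replicate 1 and 1.30 without Nup358GLKD replicate 2.

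Leaving out 1 library changed what was called. Without Nup358GLKD replicate 1 edgeR called Hsp26, Hsp27 and Hsp83 lower and l(2)efl higher, and without Nup358GLKD replicate 2 it called the same 4 genes and Hsp67Bc higher. Those fits called 62.3% and 75.5% of all features, so that 4 and 5 of 7 members are not above the background. In them the lone knockdown library is assumed to vary like the Control libraries. Without Control replicate 1 or Control replicate 2 edgeR called 0 of 7 members and 0 features in all, with 1717 and 1550 features at an unadjusted p under 0.05.

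**Figure D2:**
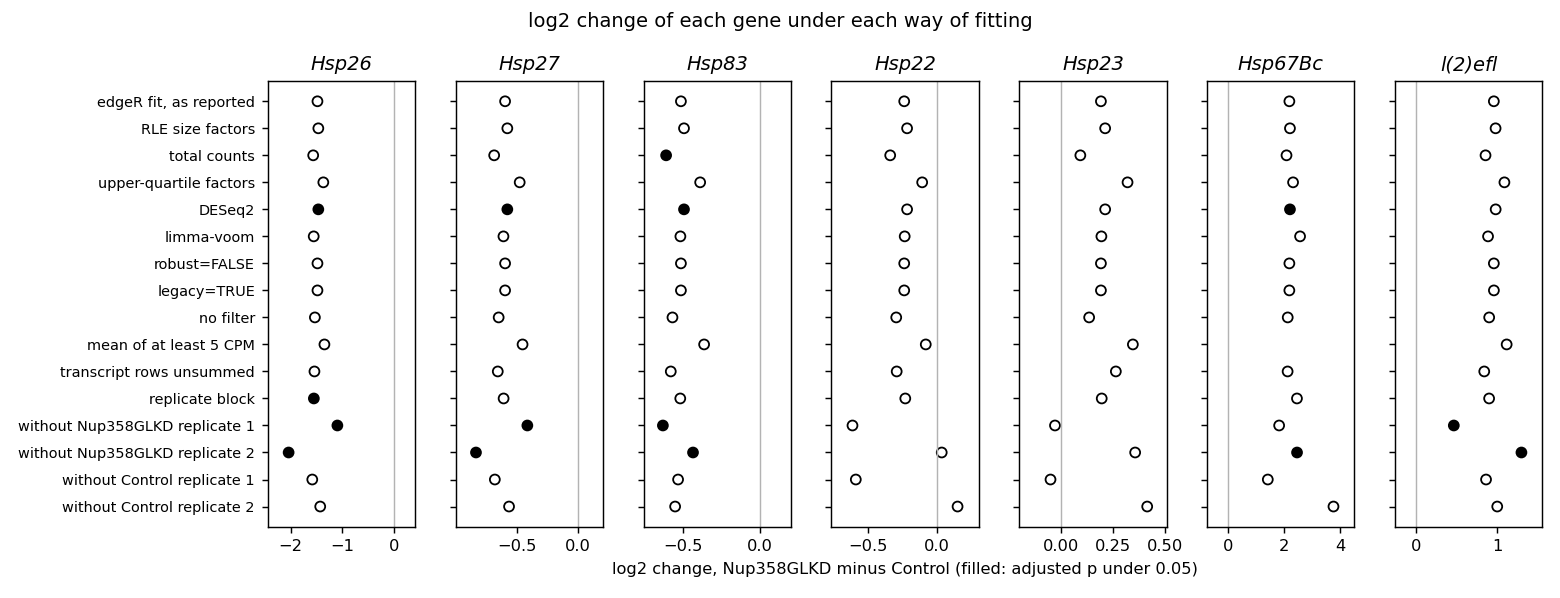
Log2 change of each gene (Nup358GLKD minus Control, x axis, a separate scale per gene) under the reported edgeR fit and each alternative (rows); filled points have an adjusted p under 0.05. Hsp26, Hsp27 and Hsp83 stay below 0 and Hsp67Bc and l(2)efl above 0 in every fit shown, whereas Hsp22 and Hsp23 cross 0 when single libraries are left out.

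Levels can be set against each other only per length, here as CPM per kilobase of the longest coding sequence. Reads also fall in untranslated parts, which this length leaves out, so close orders and the ranks depend on the divisor. In Nup358GLKD the order of mean levels was Hsp83 (1876), Hsp26 (999.1), Hsp27 (908.1), Hsp23 (99.5), Hsp22 (51.2), l(2)efl (13.1) and Hsp67Bc (12.3 CPM per kilobase). In Control it was Hsp26 (2788), Hsp83 (2673), Hsp27 (1371), Hsp23 (87.2), Hsp22 (60.2), l(2)efl (6.72) and Hsp67Bc (2.70 CPM per kilobase). The libraries of Hsp26 and Hsp27 overlapped in Nup358GLKD, as did those of l(2)efl and Hsp67Bc. In Control the libraries of Hsp26 and Hsp83 overlapped, as did those of Hsp22 and Hsp23. Among 9340 tested genes with a coding length, Hsp26 ranked 173 in Nup358GLKD and 44 in Control, Hsp83 ranked 125 and 52, and Hsp27 ranked 186 and 135 in Nup358GLKD and Control. The median gene had 21.1 CPM per kilobase in Nup358GLKD and 25.9 in Control, above l(2)efl and Hsp67Bc in both groups.

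The 6 small heat shock genes together held 1048 and 1553 CPM in Nup358GLKD and 2557 and 2845 CPM in Control. Hsp26 and Hsp27 made up 89.1% and 94.9% of that sum in Nup358GLKD and 97.3% and 96.4% in Control. The other 4 genes summed to 114.7 and 79.1 CPM in Nup358GLKD and 68.6 and 102.4 CPM in Control, which overlap. The summed difference is thus that of Hsp26 and Hsp27.

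Among transcripts of a gene, 1 row usually held nearly all counts. For Hsp26, Hsp27 and Hsp83 the leading row took between 99.0% and 99.9% of the gene's expected counts in every library. The minor Hsp83 row, which RSEM estimates from the few reads that set it apart, had 19.5 and 17.8 CPM in Nup358GLKD and 14.5 and 15.8 CPM in Control, lying higher in both knockdown libraries while the main row lay lower. It did not pass among unsummed rows (edgeR adjusted p = 0.412). Of the Hsp23 counts, the leading row held 88.1% and 97.7% in Nup358GLKD and 90.2% and 79.5% in Control, and its CPM alone were 55.9 and 46.6 in Nup358GLKD, against 36.9 and 44.9 in Control. Taken alone the leading Hsp23 row therefore did not overlap between groups, and it did not pass (edgeR adjusted p = 0.363). The l(2)efl row with fewer counts took 4.90% and 9.55% in Nup358GLKD and 6.76% and 0% in Control.

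Of the 7 genes, 5 lie side by side on chromosome arm 3L, in the small heat shock locus at cytological position 67B, while Hsp83 lies elsewhere on 3L and l(2)efl on 2R. In the order of the Release 6 gene table, 9 genes run from Hsp67Bc to Hsp27, which are the 5 members, CG4456, CG4461, Hsp67Ba and the antisense RNA asRNA:CR43481. The files were made on dm3, so no positions are given. Neighbouring members did not go the same way. Hsp67Bc lay higher in the knockdown, Hsp22 and Hsp23 overlapped, and Hsp26 and Hsp27 lay lower.

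None of the 3 tested non-members inside the locus passed. CG4456, which the gene table also lists as Hsp67Bb, had 1.44 and 0.532 CPM in Nup358GLKD and 0.463 and 0.764 CPM in Control (edgeR adjusted p = 0.435). One of its rows carries exactly the same values as the longer Hsp22 row (10.71 and 4.46 expected counts in Nup358GLKD, 22.23 and 24.55 in Control), so the 2 genes share those reads. They are at most 1.51% of the Hsp22 counts, but 13.5% and 13.8% of the CG4456 counts in Nup358GLKD and 76.5% and 52.4% in Control. Without that row CG4456 had 1.22 and 0.465 CPM in Nup358GLKD and 0.112 and 0.358 CPM in Control, which do not overlap and were not tested. Hsp67Ba, another alpha-crystallin gene, had 8.32 and 3.72 CPM in Nup358GLKD and 3.30 and 3.54 CPM in Control (log2 change 0.81, edgeR adjusted p = 0.230). The antisense RNA, which overlaps Hsp67Ba on the other strand, had 14.2 and 9.97 CPM in Nup358GLKD and 12.4 and 11.1 CPM in Control (edgeR adjusted p = 0.898), and the strand setting of the counting is not given. Of the 4 tested flanking genes, the mitochondrial ribosome recycling factor gene mRRF1 had 6.36 and 7.01 CPM in Nup358GLKD, against 13.2 and 14.0 CPM in Control. It fell 2.03-fold (edgeR adjusted p = 0.0377, lost, like every call, without either Control library). CG4452, Fdx1 and CG4080 did not pass, with log2 changes of −0.31, −0.37 and 0.26.

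**Figure D3:**
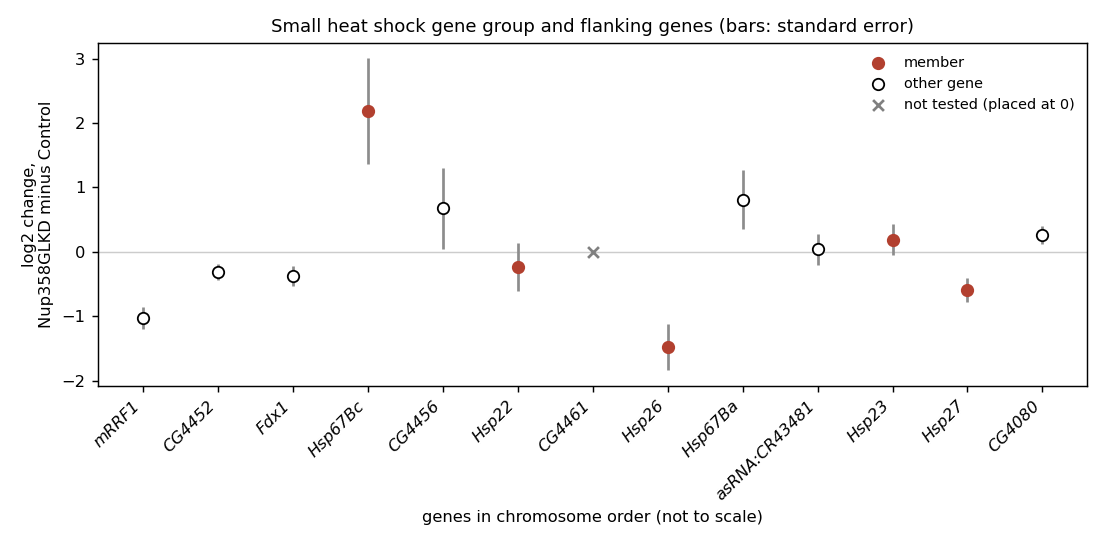
Log2 change (y axis, Nup358GLKD minus Control, bars for the standard error) of the genes of the small heat shock locus and its flanking genes in chromosome order, with members filled in red. Changes range from 2.19 for Hsp67Bc to −1.48 for Hsp26 with no shared direction, and the untested CG4461 is marked by a cross.

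Outside the 7, alpha-crystallin genes of the fly genome were compared as a list of 6, of which 3 had enough counts to be tested. CG14207 and CG7409 passed as higher and Hsp67Ba did not pass, and CG7409 reached the count filter only through the Nup358GLKD libraries, so no count is read from the list. CG14207, a small heat shock gene, had 68.8 and 64.6 CPM in Nup358GLKD, against 39.1 and 45.2 CPM in Control, and rose 1.58-fold (log2 change 0.66, SE 0.13, edgeR adjusted p = 0.0468). The adjusted p was 0.0596 when scaled by total counts and 0.0653 with no filter, and the call was lost, like every call, without either Control library. CG7409 had 29 and 31 counts in Nup358GLKD and 1 and 3 in Control. Its ratio was 16.1, with a 95% counting interval of 5.96 to 60.9 that covers counting error only (edgeR adjusted p = 0.0294, lost, like every call, without either Control library). CG4461, CG13133 and CG43851 were too low to test, with at most 6 counts in a library.

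**Figure D4:**
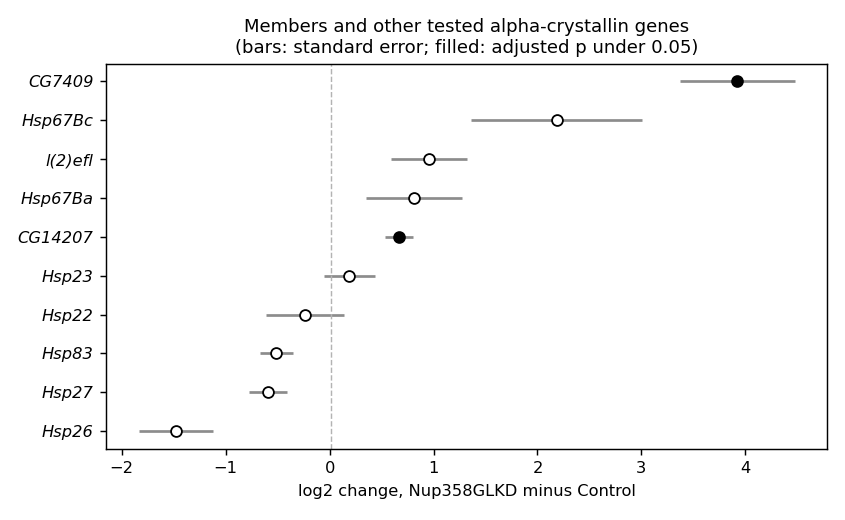
Log2 change (x axis, Nup358GLKD minus Control) with standard error for the 7 genes and the 3 other tested alpha-crystallin genes, ordered by size; filled points pass an adjusted p under 0.05 and the dashed line is the median of all tested features. CG7409 and CG14207 are the 2 that pass, but CG7409 reached the count filter only through the Nup358GLKD libraries, where it is high. Hsp26, Hsp27, Hsp83 and Hsp22 lie left of the line.

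Partners of Hsp83 had mostly negative log2 changes without passing. Of 18 tested Hsp90 co-chaperone and paralog genes, 0 rose, 1 fell and 17 did not pass, beside 9.59% of features called higher and 9.03% lower. The median log2 change was −0.18, and 13 of the 18 changes were negative, beside 5029 of 10191 features. Both Nup358GLKD values lay below both Control values for 11 of 18 and above for 3 of 18, beside 39.8% and 37.9% of features. Together these 14 of 18 are near the 77.7% of all features without overlap. The split by direction leans lower and was not tested. Cdc37, which brings kinases to Hsp90, had 192.9 and 172 CPM in Nup358GLKD, against 300.7 and 308.5 CPM in Control. It fell 1.67-fold (log2 change −0.74, SE 0.11, edgeR adjusted p = 0.0343, but 0.0546 among features averaging 5 CPM or more). The call was lost, like every call, without either Control library. Named after their values were seen, Stip1 (Hop), which bridges Hsp70 and Hsp90, had 339.9 and 399.4 CPM in Nup358GLKD and 526.8 and 539.1 CPM in Control (adjusted p = 0.0619), and CG1416, related to the Hsp90 ATPase activator Aha1, had 165.6 and 202.3 CPM in Nup358GLKD and 264.4 and 266.7 CPM in Control (adjusted p = 0.0677). DESeq2 called 1 of the 18 higher and 5 lower, beside its 20.0% of features called higher and 20.5% lower. The co-chaperone gene shu, which acts in the piRNA pathway and was also named after its values were seen, had 56.9 and 43.5 CPM in Nup358GLKD and 38.3 and 41.1 CPM in Control (adjusted p = 0.207).

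The Hsp70 machinery, to which small heat shock proteins hand their substrates, had mostly positive log2 changes without passing. Of 17 tested genes 1 rose, 0 fell and 16 did not pass, beside 9.59% of features called higher and 9.03% lower. The log2 change was positive for 13 of the 17, beside 5162 of 10191 features. Among these 13 is Hsp60A (log2 change 0.47), which is of the Hsp60 family and not of the Hsp70 system. DESeq2 called 7 of the 17 higher and 2 lower, beside 20.0% and 20.5% of features. The 7 were Hsp68, stv and the copies Hsp70Aa, Hsp70Ab, Hsp70Ba, Hsp70Bb and Hsp70Bc. The Hsp70 copies are nearly identical and RSEM divides reads among them, so their signs and calls are not independent. Hsc70-1, Hsp70Aa and Hsp70Bbb also reached the count filter through 1 group only. The counts of this list are therefore given as a description. The gene stv, a BAG-domain co-chaperone and partner of Hsp67Bc, had 55.3 and 39.8 CPM in Nup358GLKD, against 7.76 and 8.86 CPM in Control. It rose 5.73-fold (log2 change 2.52, SE 0.23, edgeR adjusted p = 0.0279, lost, like every call, without either Control library). Hsp68, named after its values were seen, had 82.2 and 34.3 CPM in Nup358GLKD and 3.08 and 23.8 CPM in Control (adjusted p = 0.203).

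**Figure D5:**
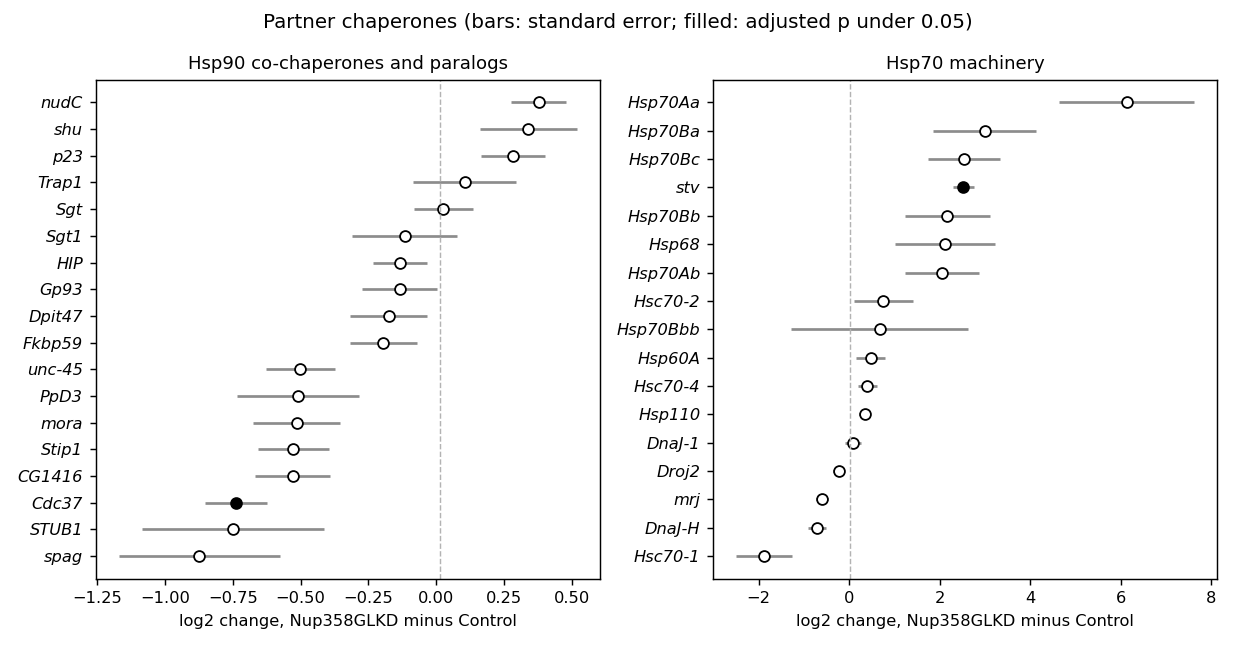
Log2 change (x axes, Nup358GLKD minus Control, different scales) with standard error of Hsp90 co-chaperones and paralogs (left) and of the Hsp70 machinery (right); filled points pass an adjusted p under 0.05 and dashed lines mark the median of all tested features. Cdc37 on the left and stv on the right are the genes that pass. The right panel also holds Hsp60A, which is of the Hsp60 family.

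Some heat-inducible genes differed between the Control libraries as well. Control replicate 2 exceeded replicate 1 for Hsp67Bc by 5.12-fold, for Hsp68 by 7.72-fold, for Hsp70Ab by 4.15-fold and for Hsp70Bb by 5.19-fold. Hsp70Aa, Hsp70Ba and Hsp70Bc had ratios of 20.4, 11.2 and 3.69. For Hsp22 and Hsp23 the ratio was 1.67 and 1.38, while Hsp26, Hsp27, Hsp83 and l(2)efl had ratios of 1.11, 1.08, 0.986 and 1.10. The co-chaperone genes stv and DnaJ-1 had ratios of 1.14 and 1.17. In the knockdown, replicate 1 exceeded replicate 2 by 1.59-fold for Hsp67Bc and 2.40-fold for Hsp68. Between the Control libraries Hsp67Bc, Hsp22 and Hsp23 thus differed more than Hsp26, Hsp27, Hsp83 and l(2)efl, and the part of this difference in the results was not tested.

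By the distance between log2 profiles over the 4 libraries, among 7062 genes with a mean of at least 5 CPM, the genes most like Hsp67Bc were Hsp70Bb and Hsp70Ab, at distances of 0.36 and 0.48, and only these 2 of the 7062 lay within 0.5. A fixed distance can hold fewer genes around a profile with large differences, and the Control values of Hsp67Bc alone differed 5.12-fold. The numbers of genes within 0.5 therefore also depend on the size of the differences. Hsp70Ab had 624.3 and 326.9 CPM in Nup358GLKD and 44.7 and 185.6 CPM in Control (edgeR adjusted p = 0.130). The Hsp70 genes are nearly identical to each other, so their separate values depend on how RSEM divided reads. For Hsp83 the nearest were AlaRS and CG3726 (distances 0.01 and 0.02), for Hsp27 RecQ5 and CG12118 (0.01 and 0.02), for Hsp26 Sil1 and Kdm4A (0.05 and 0.06), and for l(2)efl fau and Lerp (0.06 and 0.06). Those 4 patterns were shared by other genes, since 1603, 1815, 231 and 338 of the 7062 genes lay within 0.5 of Hsp83, Hsp27, Hsp26 and l(2)efl. Hsp23 was nearest to CG9503 and the Hsp40 gene DnaJ-1 (0.21 and 0.23), and its pattern was shared too, with 880 genes within 0.5. Hsp22 was nearest to CG17786 and CG33331 (0.44 and 0.45), with 9 genes within 0.5.

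Of 12 tested heat shock promoter factors 0 rose, 1 fell and 11 did not pass, beside 9.59% of features called higher and 9.03% lower (median log2 change 0.01). DESeq2 called 2 of the 12 higher and 1 lower, beside 20.0% and 20.5% of features. The 2 called higher were CycT and Trl, named after their values were seen. CycT had 666.1 and 378.8 CPM in Nup358GLKD, against 270 and 252.4 CPM in Control (edgeR adjusted p = 0.0861, DESeq2 0.0103). Trl had 191.1 and 157.7 CPM in Nup358GLKD, against 119.9 and 117 CPM in Control (edgeR adjusted p = 0.0617, DESeq2 0.0157). The log2 change was positive for 7 of the 12, beside 5162 of 10191 features. Parp1, which acts on chromatin of heat shock loci, fell 1.43-fold to 75.2 CPM in Nup358GLKD against 107.8 CPM in Control (edgeR adjusted p = 0.0452, but 0.0596 with upper-quartile factors, 0.0527 with no filter and 0.0599 among features averaging 5 CPM or more). The Parp1 call was also lost, like every call, without either Control library. Hsf, the heat shock factor, named after its values were seen, had 103.6 and 156.9 CPM in Nup358GLKD, against 160.6 and 171.3 CPM in Control (log2 change −0.35, adjusted p = 0.294). Small heat shock genes are also induced by ecdysone, and of 9 tested ecdysone receptor and early response genes none passed in edgeR (0 higher, 0 lower, 2 at an unadjusted p under 0.05) or in limma-voom. DESeq2 called 2 of the 9 higher, near its 20.0% of all features, and the median log2 change of the 9 was 0.14. The 2, named after their values were seen, were Eip75B and br. Eip75B had 177.5 and 75.4 CPM in Nup358GLKD, against 54.8 and 46.4 CPM in Control (DESeq2 adjusted p = 0.0110). For br they were 78.2 and 35.1, against 26.3 and 21.1 CPM (DESeq2 adjusted p = 0.0143). Both Nup358GLKD values lay above both Control values for 4 of 9 and below for 2 of 9, beside 37.9% and 39.8% of features.

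Markers of ovarian and other cells differed between the libraries too, and their counts stand beside 9.59% of features called higher and 9.03% lower by edgeR and 20.0% and 20.5% by DESeq2. Most of the 12 germline markers, but not bam, are expressed in the nurse cells, where Hsp26, Hsp27 and Hsp83 are transcribed, and the oocyte. The 12 markers summed to 8066 and 10718 CPM in Nup358GLKD and 8294 and 8545 CPM in Control. Of these 1 rose (orb, 2.69-fold, edgeR adjusted p = 0.0292), 0 fell and 11 did not pass, with 3 higher and 0 lower in DESeq2 and a median log2 change of −0.03. The 8 follicle cell markers summed to 725.5 and 425 CPM in Nup358GLKD and 245.5 and 209.8 CPM in Control, and 1 rose (Fas3, 3.25-fold, edgeR adjusted p = 0.0273), 0 fell and 7 did not pass, with 5 higher in DESeq2 (median log2 change 1.31). The 10 muscle sheath markers summed to 1547 and 337.9 CPM in Nup358GLKD and 345.3 and 276.8 CPM in Control, with 0 passing in edgeR (0 at an unadjusted p under 0.05), 0 in limma-voom, 7 higher in DESeq2 and a median log2 change of 1.51. Of the 13 chorion, vitelline and yolk genes, 0 rose, 1 fell (Yp3, 2.89-fold, edgeR adjusted p = 0.0401) and 12 did not pass, with 2 higher and 1 lower in DESeq2. The 10 chorion and vitelline genes summed to 6806 and 23718 CPM in Nup358GLKD and 22622 and 23295 CPM in Control, and the 3 yolk protein genes to 12425 and 9466 CPM in Nup358GLKD and 8416 and 7551 CPM in Control. The fat body and hemocyte markers summed to 46.2 and 59.1 CPM in Nup358GLKD and 15.7 and 11.4 CPM in Control. Of 6 tested, Fbp1, Fbp2 and Lsp1beta reached the count filter only through the Nup358GLKD libraries, where they are high. No count of calls is therefore read from this list. Lsp2 passed as higher (log2 change 5.09, edgeR adjusted p = 0.0279). Fbp1 had a log2 change of 2.86 (edgeR adjusted p = 0.0476, but 0.0501 when scaled by total counts, 0.0538 with legacy=TRUE and 0.0576 with no filter). The edgeR fits without a Control library called no feature at all, so they say nothing about single marker calls. None of these markers was at 0 in all libraries. Replicate 1 of the knockdown thus held the most follicle, muscle and summed yolk protein RNA, the least summed chorion and vitelline RNA, the least Hsp26 and Hsp27 RNA and the most l(2)efl and Hsp67Bc RNA. Not all values follow this order. Hsp83 was lowest in replicate 2 of the knockdown, and Yp3 alone was lowest in replicate 1 (338.1 CPM, against 541.7 CPM in replicate 2). The germline marker sum was highest in replicate 2 of the knockdown, but its members did not go the same way. Both Nup358GLKD values lay above both Control values for 3 of the 12 (grk, otu and orb). They lay below for 4 of the 12 (gcl, pgc, exu and bam), beside 37.9% of features above and 39.8% below. The part of cell composition in these values was not tested, and in whole ovaries fewer cells of a type and less RNA per cell cannot be told apart.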

How the data were processed

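Ovary RNA-seq libraries, 2 Nup358GLKD and 2 Control, were grouped by their labels. The submitters' processing notes name Bowtie2, RSEM and dm3. Versions, annotation release, strand setting and filters were not found in those notes or in the labels. The deposited values are expected counts per transcript, transposon family or piRNA cluster, per the file headers, not scaled for depth or length. Of 34437 RefSeq rows, 34035 (98.8%) matched a gene of NCBI's Release 6 table by accession, without version or copy suffix, and were added up by gene and rounded. All remaining rows were kept as single features. Coding lengths and strands came from Ensembl's annotation of the same assembly. No sequences were used here.

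All features entered one fit in R 4.3.3 with edgeR 4.0.16 (TMM factors, glmQLFit set to legacy=FALSE and robust=TRUE, then glmQLFTest; filterByExpr with minimum count 10 and minimum total 15), with Benjamini-Hochberg adjusted p under 0.05 as the threshold over all features. Every adjusted p is from edgeR where no tool is given. The code was tested on simulated data. The alternatives were DESeq2 1.42.0, voom of limma 3.58.1, other scalings, filters and edgeR settings, unsummed rows, a replicate block and fits without 1 library. Standard errors are the log2 change over the root of F, and CPM use TMM-scaled library sizes. The 3 passing members of each list with the smallest p, every alpha-crystallin gene, the genes of the locus with 3 flanking genes on each side, and the 2 genes nearest each member by Euclidean distance of log2 CPM minus the Control mean were named. Members and lists were chosen with earlier results of these data known. Figures used Python 3.11.15 and matplotlib 3.10.9.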

Additional observations from a re-analysis of the deposited data

How the results depend on the processing

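Over the alternatives, Hsp26, Hsp27, Hsp83, Hsp67Bc and l(2)efl kept their direction in every fit, and Hsp22 and Hsp23 turned only in fits without single libraries. Of 104 refits of single members, 85 left direction and call as reported, 15 brought a member past the threshold and 4 turned the sign. DESeq2 gave log2 changes of −1.46 for Hsp26, −0.58 for Hsp27, −0.49 for Hsp83 and 2.21 for Hsp67Bc, all past the threshold, and total counts gave −0.61 for Hsp83. A replicate block gave −1.55 for Hsp26 (adjusted p = 0.0310) and called 1 member lower, beside 1256 features higher and 1132 lower (11.1%). With it the adjusted p was 0.0556 for CG14207 and 0.0641 for Parp1. The replicate numbers carry no stated pairing, and deviations of same-numbered libraries correlated at 0.143 across 10044 features. Leaving out a library gave ranges of −0.61 to 0.15 for Hsp22, −0.051 to 0.41 for Hsp23, −2.04 to −1.09 for Hsp26, −0.83 to −0.41 for Hsp27, 1.41 to 3.77 for Hsp67Bc, 0.46 to 1.30 for l(2)efl and −0.63 to −0.43 for Hsp83. It gave 0 to 2 members called higher and 0 to 3 lower, and 0 to 3789 features higher and 0 to 4218 lower. DESeq2 called 1 member higher and 3 lower, and 1916 features higher and 1964 lower. Total counts called 1 member lower, beside 10.3% of all features. A mean of at least 5 CPM, which tests fewer genes and leaves out Hsp67Bc, called 607 features lower. Unsummed rows gave 0 features higher, 1 lower and no member. Upper-quartile factors moved the median of all features to 0.14 from 0.01 on the log2 scale, with no member called. Each group has 2 libraries. Causes of these differences were not tested.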
